A study of Homo sapiens with 32 samples.

Results

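The small transcriptional response that remains in MDA-MB-231 cells labelled G579S when they meet OTS964, a small-molecule inhibitor of the kinase CDK11, is described here. MDA-MB-231 is an established human breast cancer cell line with a mesenchymal character. The comparison rests on 4 libraries of the 32 in the series, chosen by their titles: 2 of G579S cells given OTS964 at 100 nM and 2 of G579S cells given the solvent DMSO. All cells were grown in DMEM with serum and treated for 6 h, and the design text calls G579S cells resistant to inhibition of CDK11 and wild-type cells sensitive. Wild-type MDA-MB-231 cells with and without the drug (4 libraries) and the G579S cells of 3 other lines, A375 melanoma, Cal51 breast cancer and DLD1 colorectal cancer (12 libraries), gave the scale. The labels give no account of how the G579S cells were made, and none of the sources used here gives the number of clones behind each line. Whether the 2 libraries of a group are separate cultures is not in the labels. The p-values rest on the spread between libraries of a group, estimated over all 32 libraries in 16 groups and not over the compared libraries alone. That spread may be technical only.

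As background, CDK11 is a cyclin-dependent kinase encoded by the near-identical genes CDK11A and CDK11B. It works with the L-type cyclins CCNL1 and CCNL2 and phosphorylates the U2 particle protein SF3B1, a step in the activation of the spliceosome. It is also tied to the transcription of replication-dependent histone genes. G579S is an amino acid substitution in the kinase domain of CDK11B that is known to lower the sensitivity of cells to OTS964.

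The 4 G579S libraries held 17770917 and 23560613 estimated reads with DMSO and 16715587 and 24969773 with OTS964. A count of 0 allows up to 3 counts, which is 0.173, 0.129, 0.194 and 0.135 CPM (counts scaled to library size) in that order, and such limits cover counting error only. Replicates differed by more than sampling noise in each MDA-MB-231 group, with a chi-square per degree of freedom between 7.22 and 14.19 in 3 of the groups and of 85.97 in the wild-type OTS964 group, whose libraries lay farthest from each other. Of the mesenchymal markers, 19 of 22 reached 1 CPM in a G579S library, and CDH2, TWIST1 and TWIST2 stood at 0. Of 18 breast epithelial markers 10 reached 1 CPM, KRT8 among them, while the estrogen receptor gene ESR1, PGR and FOXA1 stood at 0. Of 17 colorectal markers 4 reached 1 CPM, with EPCAM at 29.5 to 36.8 CPM, and 8 stood at 0, CDX1, CDX2 and VIL1 among them. Of 13 melanocyte markers 4 reached 1 CPM, with MITF at 6.63 to 11.1 CPM, and 4 stood at 0, TYR among them.

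CDK11B itself, the gene named by the substitution, was far more abundant in G579S than in wild-type MDA-MB-231 cells. It stood at 605 and 672 CPM in the G579S DMSO libraries and at 850 and 880 CPM in the G579S OTS964 libraries. In wild-type cells the values were 61.8 and 56.4 CPM with DMSO and 60.05 and 71.3 CPM with OTS964. The log2 difference between the genotypes under DMSO was 3.43 ± 0.17 (SE), with an adjusted p of 2e-10 by edgeR's quasi-likelihood test, where 7.3% of all genes differed between the genotypes under DMSO, 2.74% higher and 4.55% lower in G579S. The reads of CDK11A and CDK11B can be split between the paralogs with error, and CDK11A stood at 21.5 and 29.6 CPM with DMSO and 25.3 and 25.5 CPM with OTS964 in G579S cells.

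The excess lay on a single listed transcript, NM_033486.1. This transcript held 96.4% and 96.7% of the CDK11B reads in the G579S DMSO libraries and 97.3% in both G579S OTS964 libraries. In wild-type cells it held 69.8% and 67.8% with DMSO and 74.5% and 79.8% with OTS964. All other CDK11B transcripts together gave 21.6 and 22.4 CPM in G579S DMSO libraries and 22.6 and 23.8 CPM in G579S OTS964 libraries, beside 18.7 and 18.1 CPM and 15.3 and 14.4 CPM in the corresponding wild-type libraries. The remaining transcripts of the gene were therefore at similar levels in the genotypes under DMSO, and the plot of CDK11B by library shows this split.

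**Figure D1:**
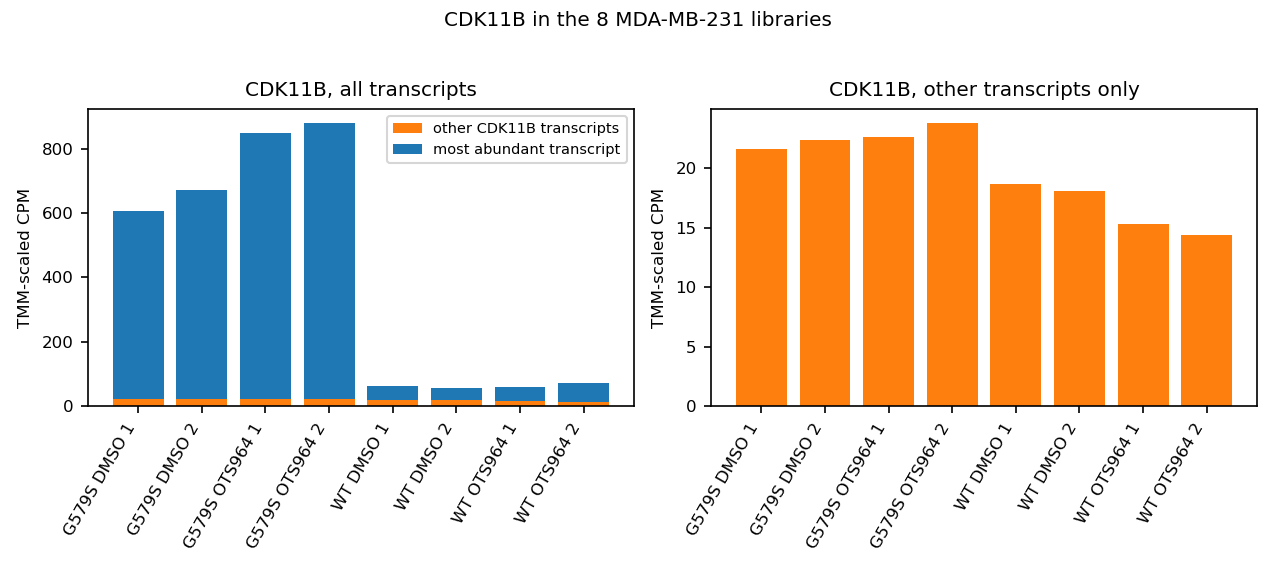
Stacked bars give TMM-scaled CPM of CDK11B in each of the 8 MDA-MB-231 libraries, with all transcripts on the left and the transcripts other than NM_033486.1 alone on the right, each axis from 0. The G579S libraries reach 605 to 880 CPM against 56.4 to 71.3 CPM in wild-type libraries, while the other transcripts stay between 14.4 and 23.8 CPM in all 8.

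With OTS964 the CDK11 genes and their partners gave no call in G579S cells. CDK11B changed by a log2 of 0.44 ± 0.16 (SE; adjusted p = 0.27, edgeR), with both OTS964 libraries above both DMSO libraries. CDK11A changed by -0.01 ± 0.15 (adjusted p = 1). CCNL1 went from 12.4 and 6.93 CPM to 19.9 and 16.4 CPM (0.91 ± 0.36, adjusted p = 0.32) and CCNL2 from 15.9 and 26.1 CPM to 16.6 and 15.0 CPM (-0.41 ± 0.26, adjusted p = 0.6). SAP30BP, a splicing factor that binds cyclin L with CDK11, was at 50.6 and 57.3 CPM with DMSO and at 61.6 and 59.5 CPM with OTS964 (log2 0.17). In wild-type cells SAP30BP fell by 1.03 on the log2 scale, and its responses in the genotypes differed (adjusted p of the difference 9.6e-06). PBK, a kinase that OTS964 was first described to inhibit, changed by 0.01 ± 0.16 (adjusted p = 1), from 76.3 and 80.0 CPM to 80.2 and 77.2 CPM.

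Across the transcriptome, OTS964 changed 44 of 14318 genes in MDA-MB-231 G579S cells at an adjusted p below 0.05 (0.307% of genes tested), 32 higher (0.223%) and 12 lower (0.0838%). The genes that rose included the growth-signal and stress genes CCN1, BHLHE40, CSRNP1 and MYC, the RNA-binding protein genes HNRNPL, HNRNPR and SRSF1, and subunits of the endoplasmic reticulum glycosylation machinery. Those that fell included MAT2A and ARGLU1. The OTS964 and DMSO libraries did not overlap in any of the 44 genes, as in 50.7% of all genes tested. A 2-fold change was reached by 14 of the 44 genes, 8 higher and 6 lower. In wild-type MDA-MB-231 cells the same drug exposure changed 6656 genes (46.5%), 3449 higher (24.1%) and 3207 lower (22.4%). The median absolute log2 change over all genes was 0.225 in G579S and 0.791 in wild-type cells. The responses of the genotypes differed for 3797 genes (26.5%) by a test of the difference itself. As G579S minus wild-type, 1893 differences were positive (13.2%) and 1904 negative (13.3%). This split and that of the wild-type calls depended on the scaling. By library totals, the wild-type calls were 6523, 1662 higher and 4861 lower, with 4886 shared with the 6656. The genotype differences then were 3095, 2721 positive and 374 negative. In bulk libraries such as these, fewer cells of a type and less RNA per cell cannot be told apart.

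The number of calls in G579S cells moved with the libraries in the fit. It was 13 without the first DMSO library, 12 without the second, 7 without the first OTS964 library and 16 without the second. In a fit of the 8 MDA-MB-231 libraries alone, edgeR called 0 of 12353 genes, with 1102 at an unadjusted p below 0.05, and in a fit of the 4 G579S libraries alone it called 1027, among them 40 of the 44. DESeq2 called 420 genes, among them 43 of the 44, and edgeR had 1751 genes at an unadjusted p below 0.05. Without the 4 libraries labelled DLD1 wild-type the count was 134, all 44 included. These libraries are in none of the comparisons made here but enter the expression filter, the scaling and the spread of the fit. They went against their label: VIM stood at 3571 and 3478 CPM in those with DMSO and at 8.17 and 7.95 CPM in DLD1 G579S cells with DMSO, and the intestinal factor CDX2 at 2.84 and 3.66 CPM against 96.1 and 96.5 CPM. Scaling by size factors (RLE) gave 29 calls and scaling by library totals gave 33, 8 higher and 25 lower, of which 20 were among the 44. Of 42 called genes followed one by one, 0 changed sign in any setting that tested them. That was largely set by their choice, since the OTS964 and DMSO libraries overlapped in none of them, and it is no measure of stability.

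Several of the genes that rose are known to respond quickly to growth signals and stress. CCN1, which encodes a secreted matrix protein and is a target of YAP and serum response factor, stood at 999.5 and 1043 CPM in the DMSO libraries and at 2068 and 2170 CPM in the OTS964 libraries. Its log2 change was 1.05 ± 0.18 (SE; adjusted p = 0.019, edgeR), and each OTS964 library was above each DMSO library. In wild-type cells CCN1 went from 1076 and 1044 CPM to 7432 and 6024 CPM, so the genotypes began at like levels and separated with the drug.

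BHLHE40, a basic helix-loop-helix repressor of the clock and stress responses, went from 77.8 and 80.1 CPM to 162 and 160 CPM (1.03 ± 0.16, adjusted p = 0.0054, edgeR). CSRNP1, an immediate early nuclear protein, went from 29.0 and 25.4 CPM to 54.5 and 57.4 CPM (1.04 ± 0.16, adjusted p = 0.0054). MYC, the growth-promoting transcription factor, went from 105 and 115 CPM to 184 and 180.5 CPM (0.73 ± 0.15, adjusted p = 0.037). In each of these 3 genes the libraries of a group lay close together. The wild-type rises were larger, at log2 changes of 2.77, 2.49 and 2.03, and each differed from the rise in G579S cells.

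The inhibitors of signalling among the called genes rose too. DUSP5, a phosphatase that inactivates ERK in the nucleus, went from 71.7 and 75.4 CPM to 117 CPM in both OTS964 libraries (0.67 ± 0.13, adjusted p = 0.024). SMAD7, which blocks TGF-beta receptor signalling, went from 22.7 and 21.8 CPM to 33.7 and 31.6 CPM (0.55 ± 0.10, adjusted p = 0.024). TNFAIP3, the ubiquitin-editing inhibitor of NF-kB, went from 16.8 and 21.4 CPM to 42.0 and 40.1 CPM (1.10 ± 0.22, adjusted p = 0.037). In each of them both OTS964 libraries were the high ones.

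CDKN1B, which encodes the cell-cycle inhibitor p27, went from 36.0 and 33.3 CPM to 63.3 and 58.2 CPM (0.81 ± 0.16, adjusted p = 0.037). GADD45A, a growth arrest and DNA damage gene, went from 88.3 and 78.8 CPM to 128 and 130 CPM (0.62 ± 0.13, adjusted p = 0.037). PHLDA1 went from 633 and 656 CPM to 976 and 999.5 CPM (log2 0.62). CREBZF, a basic leucine zipper factor, went from 18.1 and 11.0 CPM to 47.3 and 52.2 CPM (1.78 ± 0.31, adjusted p = 0.019). Unlike most of the others, CREBZF rose about as far as in wild-type cells, where the log2 change was 2.10, and the difference of -0.32 ± 0.42 did not pass the test (adjusted p = 0.69).

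**Figure D2:**
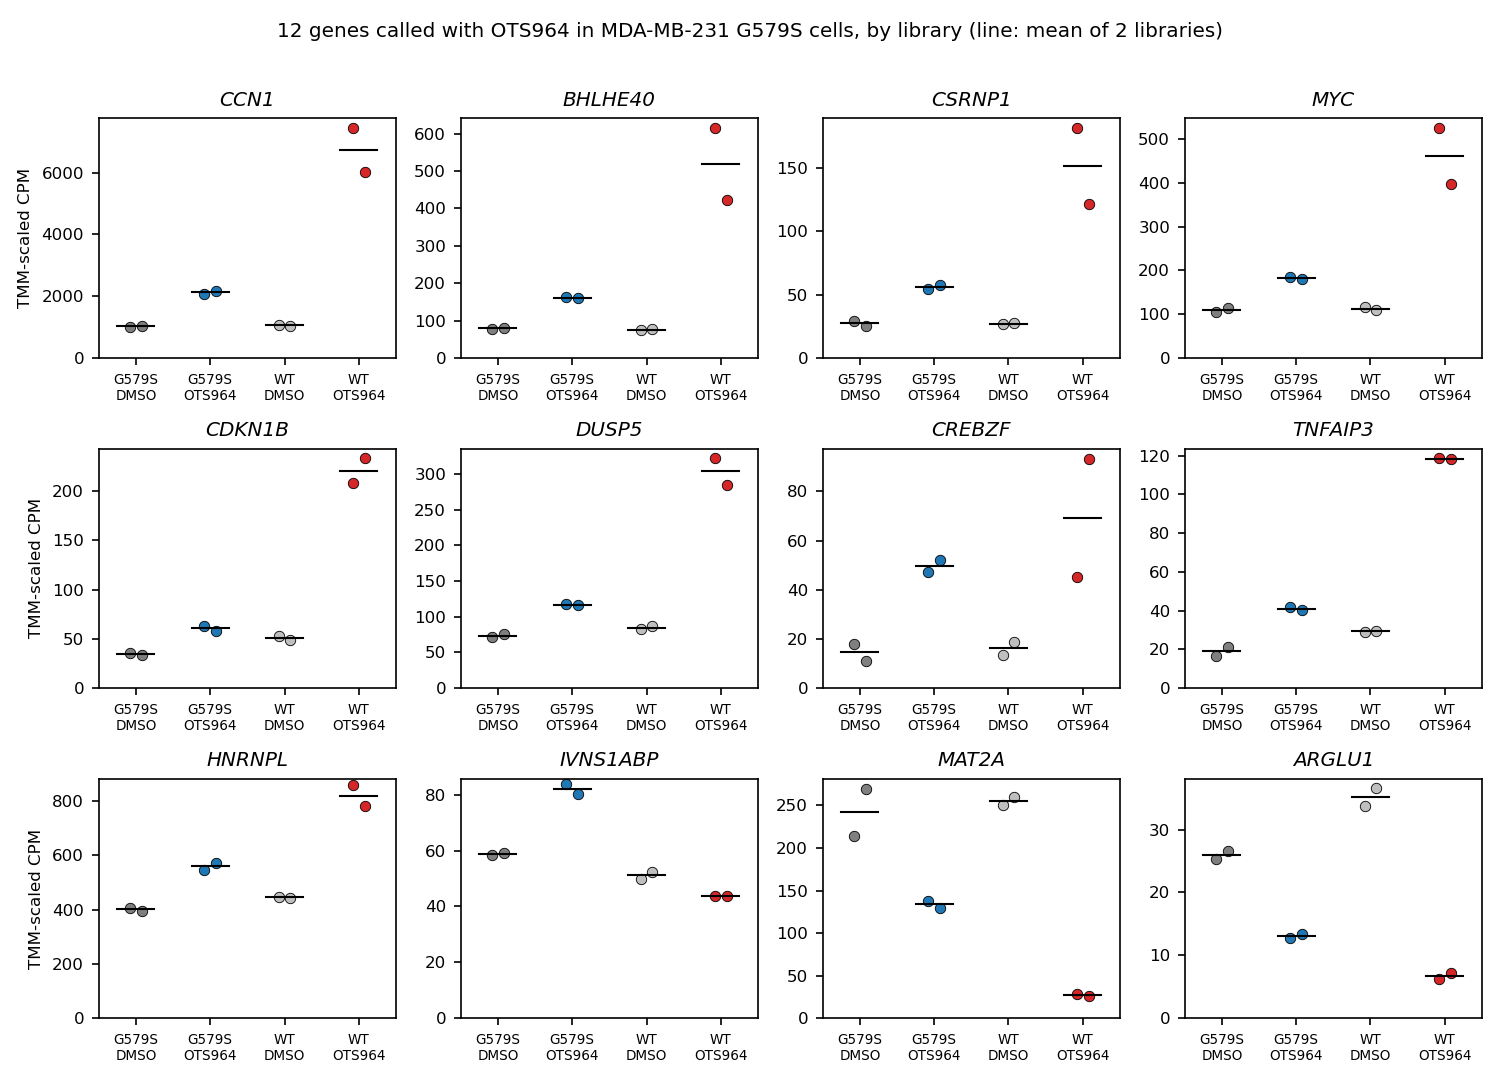
Points are TMM-scaled CPM of single libraries and lines the mean of 2 libraries for 12 called genes, in G579S and wild-type (WT) MDA-MB-231 cells with DMSO or OTS964, each axis from 0. In 11 panels wild-type OTS964 libraries move in the same direction as G579S OTS964 libraries, while IVNS1ABP rises in G579S to 83.7 and 80.3 CPM and is at 43.7 and 43.6 CPM in wild-type cells.

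The lists of pathway genes put these rises in context. Over all genes tested, 0.307% were called by edgeR, 12.2% had an unadjusted p below 0.05 and 2.93% were called by DESeq2, and the counts of the lists stand beside these shares. Of 35 immediate early genes tested, MYC and CSRNP1 were called and 9 had an unadjusted p below 0.05, with a median log2 change of 0.23 beside 0.00 over all genes. Of 21 feedback genes of the ERK pathway, DUSP5 and PHLDA1 were called, and the median of the list was -0.06. DUSP6, another ERK phosphatase, went from 117 and 121 CPM to 191 and 189 CPM and did not pass the test (0.68 ± 0.17, adjusted p = 0.097). Of 26 YAP and serum response factor targets, CCN1 was called (median 0.11, or -0.01 with library totals as the scaling), while EDN1, which encodes the vasoconstrictor endothelin, was at 12.5 and 11.9 CPM with DMSO and 25.8 and 25.2 CPM with OTS964 (1.06 ± 0.30, adjusted p = 0.15). Of 27 NF-kB and cytokine genes, TNFAIP3 was called (median 0.15, or 0.03 with library totals), and NFKBIA, the inhibitor of NF-kB, was at 45.2 and 50.6 CPM and at 95.5 and 105 CPM (1.07 ± 0.29, adjusted p = 0.13). FOSB, an AP-1 subunit, was at 0 and 1.29 CPM with DMSO and at 4.08 and 5.75 CPM with OTS964 (adjusted p = 0.14). DESeq2 called 4 genes of the immediate early list, 3 of the ERK list, 2 of the YAP list and 4 of the NF-kB list.

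The starts of 3 of the called genes are shown because their letters hold sites of factors named above. Promoter windows of 250 bases before the start were taken from RefSeq (GRCh38.p14), and 25 of the 32 genes that rose and 9 of the 12 that fell had one. The E-box CACGTG, the site that BHLHE40 and MYC with MAX bind, was searched on both strands and was found in 4 of the 25 windows (16.0%), those of BHLHE40, DDOST, IVNS1ABP and TNFAIP3, beside 8.66% of the 11587 windows of all tested genes. It was in 0 of the 9 windows of genes that fell. In the first pair of sequences the capitals mark the E-box, at chr3:4979187-4979436 on the plus strand and at chr1:20661370-20661619 on the minus strand.
BHLHE40: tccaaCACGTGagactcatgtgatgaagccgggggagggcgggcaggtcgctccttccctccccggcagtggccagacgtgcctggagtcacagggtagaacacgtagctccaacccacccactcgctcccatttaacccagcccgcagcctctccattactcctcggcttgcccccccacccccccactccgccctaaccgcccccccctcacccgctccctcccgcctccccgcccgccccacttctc
DDOST: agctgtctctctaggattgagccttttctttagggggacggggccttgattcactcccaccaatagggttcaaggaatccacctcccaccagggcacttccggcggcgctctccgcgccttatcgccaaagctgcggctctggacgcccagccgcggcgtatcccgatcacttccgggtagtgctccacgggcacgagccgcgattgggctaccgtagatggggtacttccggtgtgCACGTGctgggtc
The E-box began 245 bases before the start of BHLHE40 and 13 bases before that of DDOST.

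In the window of TNFAIP3, at chr6:137867009-137867258 on the plus strand, the capitals mark both matches to an NF-kB motif, GGAAA and CCC with a gap of 2 bases between them, searched on both strands.
TNFAIP3: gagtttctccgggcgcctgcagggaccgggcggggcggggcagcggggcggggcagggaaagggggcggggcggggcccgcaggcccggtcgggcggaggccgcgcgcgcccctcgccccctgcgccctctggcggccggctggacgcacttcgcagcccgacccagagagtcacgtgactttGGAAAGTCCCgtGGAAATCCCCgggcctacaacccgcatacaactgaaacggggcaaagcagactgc
The matches began 67 and 55 bases before the start, and TNFAIP3 was the only gene that rose with this motif (1 of 25, 4.0%), beside 1.93% of all windows. The AP-1 letters TGANTCA were in 1 of 25 windows (4.0%, in DDOST) and in 4.04% of all, and the CRE letters TGACGTCA in 0 of 25 and in 2.77% of all. The CCAAT box (letters CCAAT) was in 10 of 25 windows (40.0%) and in 34.8% of all, the CArG box of serum response factor in 0 of 25 and in 1.06% of all. These matches describe the letters of the windows only.

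Some RNA-binding protein genes rose, gathered here by their known function and not by a test. HNRNPL, which regulates splicing through CA repeats, went from 407 and 394 CPM to 546 and 572 CPM (0.48 ± 0.07, adjusted p = 0.0041, edgeR). HNRNPR went from 261 and 258 CPM to 349 and 344 CPM (0.42 ± 0.07, adjusted p = 0.019). SRSF1, a founding member of the SR splicing factors, went from 316 CPM in both DMSO libraries to 414 and 428 CPM (0.41 ± 0.08, adjusted p = 0.021). In all 3 genes the spread within a group was small beside the rise.

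HNRNPR and SRSF1 rose as far in G579S as in wild-type cells, where their log2 changes were 0.31 and 0.39. The differences were 0.11 ± 0.10 (adjusted p = 0.53) and 0.03 ± 0.11 (adjusted p = 0.98). IVNS1ABP, a kelch protein of nuclear speckles that acts with hnRNP proteins in splicing, went from 58.4 and 59.1 CPM to 83.7 and 80.3 CPM (0.48 ± 0.08, adjusted p = 0.011) and was the only gene called in opposite directions in the genotypes: in wild-type cells it fell by 0.23 on the log2 scale (adjusted p = 0.021). SRSF3, another SR protein, was at 338 and 357 CPM with DMSO and at 486 and 499 CPM with OTS964 (0.50 ± 0.12, adjusted p = 0.09), beside -0.07 in wild-type cells, and the responses differed (adjusted p = 0.017). YBX1, which binds messenger RNA in the cytoplasm, went from 1060 and 1046 CPM to 1330 and 1422 CPM (log2 0.39), and PABPC4, a cytoplasmic poly(A)-binding protein, from 326 and 319 CPM to 392 and 404 CPM (log2 0.30).

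By list, 1 of 17 SR proteins and 2 of 23 hnRNP proteins were called, all higher, with medians of 0.06 and 0.18, or 0.00 and 0.06 with library totals. None of the 44 core spliceosome genes tested was called by edgeR (11 at an unadjusted p below 0.05, 2 by DESeq2). Their median was 0.15, and U2AF2, which reads the polypyrimidine tract, was at 220 and 236 CPM and at 299 and 329 CPM (0.46 ± 0.11, adjusted p = 0.097). None of 20 cleavage and polyadenylation factors was called (6 at an unadjusted p below 0.05, 3 by DESeq2), and their median was -0.09. CSTF3 was at 50.9 and 48.3 CPM and at 33.8 and 35.2 CPM (-0.52 ± 0.12, adjusted p = 0.071), CPSF4 was at 45.1 and 48.3 CPM and at 31.3 and 32.6 CPM (-0.55 ± 0.15, adjusted p = 0.13), and CSTF2T, a paralog of CSTF2 without introns, was at 34.8 and 35.1 CPM and at 50.6 and 50.1 CPM (0.53 ± 0.15, adjusted p = 0.15). Of 12 splicing kinases (median -0.18) and 16 transcription kinases and partners (median -0.14) none was called by edgeR, with 1 and 2 at an unadjusted p below 0.05 and 1 and 0 called by DESeq2. SRPK2 changed by -0.41 in G579S against -1.71 in wild-type cells, and CDK13 by -0.37 against -1.76, and both differed between the genotypes.

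The oligosaccharyltransferase, which attaches N-linked glycans to proteins entering the endoplasmic reticulum, had 4 called subunits. RPN1 went from 228 and 241 CPM to 296 and 298 CPM (0.34 ± 0.06, adjusted p = 0.019, edgeR). RPN2 went from 404 and 398 CPM to 521 and 536 CPM (0.40 ± 0.07, adjusted p = 0.021). DDOST went from 257 CPM in both DMSO libraries to 335 and 337 CPM (0.38 ± 0.08, adjusted p = 0.045), and STT3A, a catalytic subunit, from 348 and 360 CPM to 446 and 466 CPM (0.36 ± 0.08, adjusted p = 0.044). Each rose by less than in wild-type cells, where the log2 changes were 0.99, 1.16, 1.18 and 0.87. None of the 4 kept its call in most of the other settings of the fit.

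A list of the complex, made after these values were seen, had 12 tested genes, 4 of them called and all 12 above 0, beside 0.307% and 47.5% of all genes, with a median of 0.34, or 0.22 with library totals. The 4 calls were known when the list was made, so their share was set by that choice. The rise was not particular to the complex. All 76 ribosomal protein and all 54 oxidative phosphorylation genes tested were above 0 too, with medians of 0.34 and 0.35. SEC61A1, the channel of the translocon that feeds proteins to the complex, went from 350 and 357 CPM to 430 and 461 CPM (0.33 ± 0.07, adjusted p = 0.037). It was the only called gene of 13 translocon genes, a list also made afterwards, whose median was 0.21. TMBIM6, a membrane protein of the same organelle, went from 751 and 755 CPM to 916 and 925 CPM (log2 0.29). Of 30 genes of the ATF4 pathway and the unfolded protein response none was called by edgeR (5 at an unadjusted p below 0.05, 2 by DESeq2). Their median was 0.14, or 0.01 with library totals, and the chaperone genes PDIA4 and CALR changed by 0.37 (adjusted p = 0.09) and 0.38 (adjusted p = 0.1).

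The glycolytic enzyme genes PGK1 and PGAM1 rose as well. PGK1 went from 751 and 723 CPM to 988 and 983 CPM (0.42 ± 0.08, adjusted p = 0.037) and PGAM1 from 637 and 657 CPM to 858 and 863 CPM (0.41 ± 0.08, adjusted p = 0.035). ENO1, the next enzyme of the pathway, was at 2467 and 2484 CPM and at 3178 and 3275 CPM (0.38 ± 0.08, adjusted p = 0.055). Among 23 hypoxia and glycolysis genes PGK1 was the only call, and the median was 0.21. The lysosomal peptidase gene PRCP (log2 0.45), the protease-activated receptor gene F2RL1 (0.36) and TMEM120B (0.54) rose by amounts of the same order. F2RL1 stood at 137 and 136 CPM with DMSO and at 172 and 178 CPM with OTS964.

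The remaining genes that rose were expressed at low levels. TNC, which encodes the matrix protein tenascin C, was listed at 0 in both DMSO libraries and stood at 4.404 and 1.75 CPM with OTS964, which was at least 20.4-fold higher when 3 counts per library are allowed. In wild-type cells TNC was at 3.04 and 3.93 CPM with DMSO, so its starting level differed between the genotypes. IFT140, a subunit of the intraflagellar transport complex of cilia, was at 0.519 and 0.560 CPM with DMSO and at 10.7 and 3.77 CPM with OTS964 (adjusted p = 0.019). SLX9, a ribosome biogenesis gene, was at 2.36 and 1.85 CPM and at 8.16 and 9.34 CPM (adjusted p = 0.04). All 3 were lower in G579S than in wild-type cells under DMSO, with adjusted p values of 0.0013, 0.0013 and 0.00085.

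Of the 12 genes that fell, 7 exceeded 5 CPM in a G579S library. MAT2A, the enzyme that makes S-adenosylmethionine and a known case of regulated intron retention, went from 215 and 269 CPM to 138 and 130 CPM (-0.85 ± 0.12, adjusted p = 0.0041, edgeR). ARGLU1, a splicing modulator, went from 25.4 and 26.7 CPM to 12.8 and 13.5 CPM (-0.99 ± 0.14, adjusted p = 0.0041). In wild-type cells the falls were deeper: MAT2A dropped to 28.4 and 26.2 CPM and ARGLU1 to 6.25 and 7.22 CPM.

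SLF2, which recruits the SMC5/6 complex to damaged DNA, went from 87.4 and 102 CPM to 44.2 and 59.5 CPM (-0.87 ± 0.15, adjusted p = 0.019). The dynein regulator PAFAH1B1 went from 201 and 193 CPM to 150 and 159 CPM (-0.35 ± 0.07, adjusted p = 0.024). The tight junction gene CLDN12 changed by -0.72, from 51.0 and 50.9 CPM to 30.4 and 31.4 CPM, and the sorting nexin gene SNX33 by -0.76, from 30.6 and 28.6 CPM to 16.2 and 18.6 CPM. Each was lower in both OTS964 libraries. SH3PXD2B, a scaffold of invasive podosomes, went from 4.61 and 5.21 CPM to 2.14 and 2.11 CPM (-1.21 ± 0.25, adjusted p = 0.044).

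Low counts carried the other calls. POGLUT2, a protein glucosyltransferase of the endoplasmic reticulum, stood at 3.98 and 3.70 CPM with DMSO and was listed at 0 in both OTS964 libraries, at least 23.4-fold lower. It was at 4.78 and 6.22 CPM in the wild-type OTS964 libraries. The zinc finger gene ZFP62 went from 1.73 and 3.19 CPM to a listed 0 in both libraries and did the same in wild-type cells, from 4.88 and 4.46 CPM. KCNAB1 and HOXC6 were at most 1.15 CPM in every G579S library. A gene listed at 0 by an estimate of this kind can have lost its reads to other transcripts that share its sequence.

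The G579S response followed the wild-type response of the same line in direction, at a smaller size. Of the 32 genes that rose, 28 were also called higher in wild-type cells (87.5% of the 32 and 0.812% of the 3449), beside a background of 24.1% of all genes, and 1 was called lower. Of the 12 that fell, 9 were called lower in wild-type cells (75% of the 12 and 0.281% of the 3207), beside 22.4% of all genes. The comparisons share no library, but they share the fit and its scaling, on which the wild-type split into higher and lower depended. The median log2 change of the 32 genes was 0.51 in G579S and 1.17 in wild-type cells, and that of the 12 genes was -1.10 and -1.35. Of the 32, 27 differed between the genotypes and 23 of these were smaller in G579S. Of the 12, 7 differed and 4 were smaller.

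**Figure D3:**
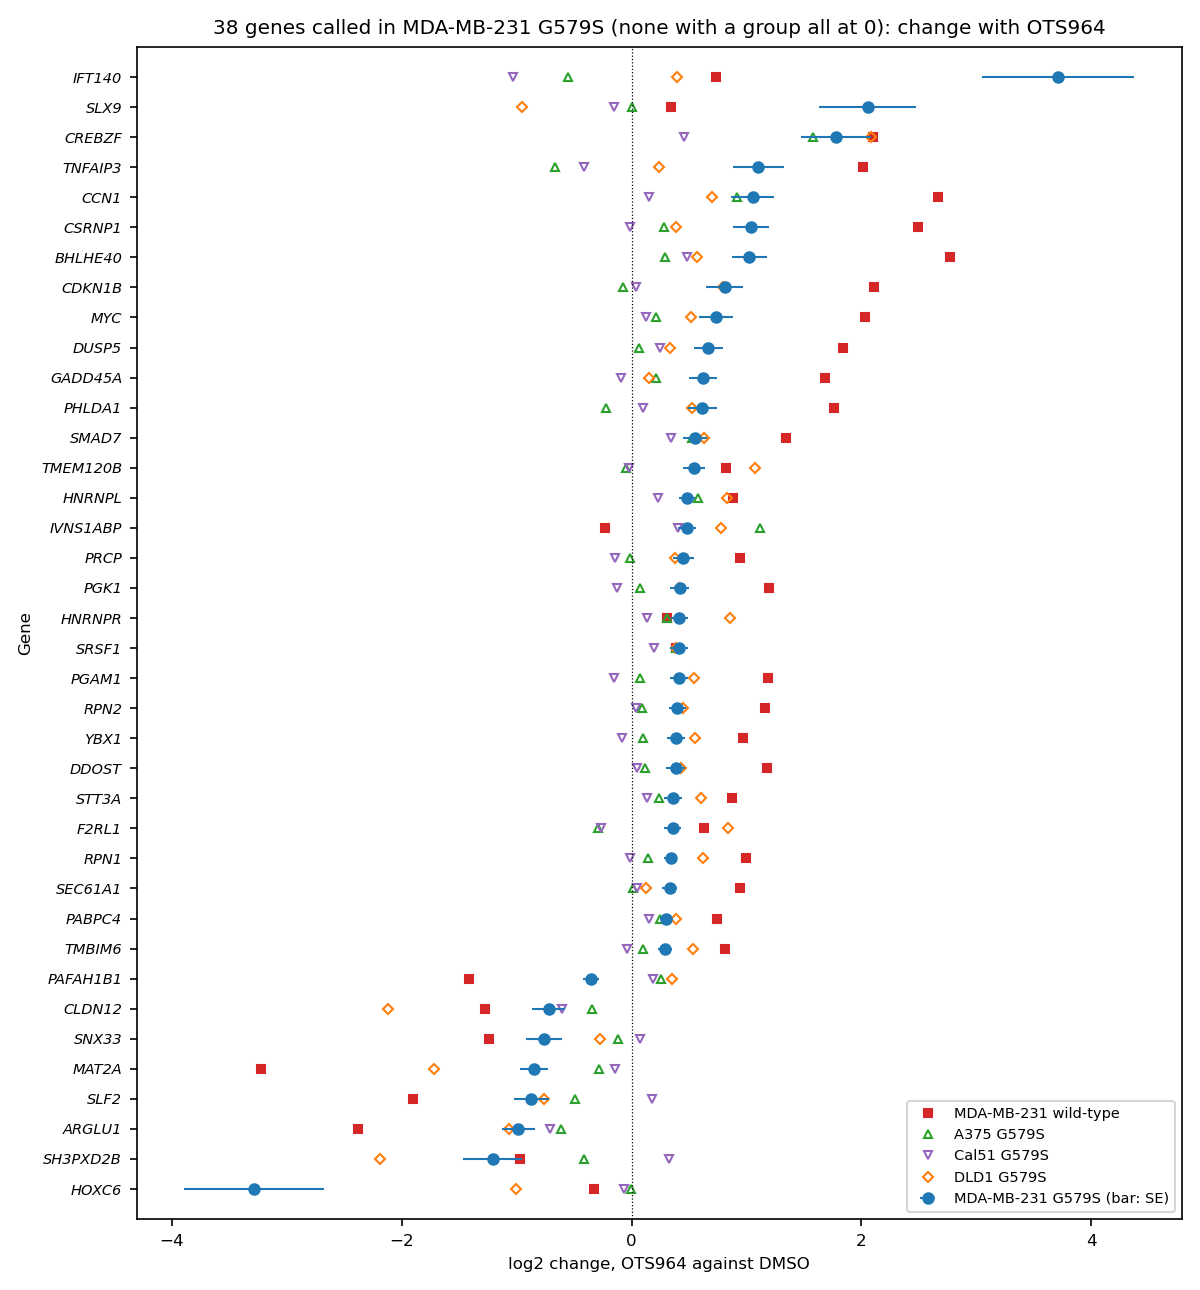
Points are log2 changes with OTS964 for 38 called genes that had no group of libraries all at 0, with the SE for MDA-MB-231 G579S as a bar, and squares and open symbols for wild-type MDA-MB-231 and the other G579S lines. Most red squares lie farther from 0 than the blue points, as for MAT2A at -3.23 and -0.85, while IFT140, SLX9 and HOXC6 lie farther from 0 in MDA-MB-231 G579S.

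The same held over the genes with a 2-fold response in wild-type cells, most of which were not called one by one in G579S cells. Among the 1346 genes that rose at least 2-fold in wild-type cells, the median log2 change in G579S was 0.32, with quartiles of 0.23 and 0.40, and 90.6% lay above 0, beside 47.5% of all genes. The median was 0.28 in the first OTS964 library and 0.35 in the second. Only 16 of these genes were called in G579S. Among the 2331 genes that fell at least 2-fold in wild-type cells, the median was -0.22, with quartiles of -0.41 and -0.05, 18.7% lay above 0, and 8 were called. The 7662 genes not called in wild-type cells had a median of 0.00. Without the first wild-type OTS964 library the medians were 0.35 and -0.22, and without the second they were 0.29 and -0.20.

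How the size in G579S cells went with the size in wild-type cells depended on the level of the genes. Over all genes tested, the median G579S log2 change was 0.19 for rises of up to 1 on the log2 scale in wild-type cells, 0.32 for rises between 1 and 2, and 0.33 for the 130 genes above 2, of which 56.9% lay above 0. For falls of up to 1, between 1 and 2, between 2 and 4, and beyond 4 the medians were -0.13, -0.20, -0.25 and -0.31. With a filter added after the data were seen, a mean of at least 5 CPM, the medians for rises were 0.19 (2082 genes), 0.32 (1130) and 0.92 (26), and those for falls were -0.13, -0.19, -0.24 and -0.24, the last over 50 genes. The log2 changes in the genotypes had a Pearson r of 0.14 and a Spearman rho of 0.46 over all 14318 genes, and 0.46 and 0.67 over the 9703 genes past this filter, a description across genes, which are not independent. DHX35, an RNA helicase gene, is an example without a residual change: it was listed at 0 in both wild-type OTS964 libraries, after 24.4 and 26.1 CPM with DMSO, and was at 23.9 and 20.8 CPM and at 25.2 and 27.4 CPM in G579S cells.

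**Figure D4:**
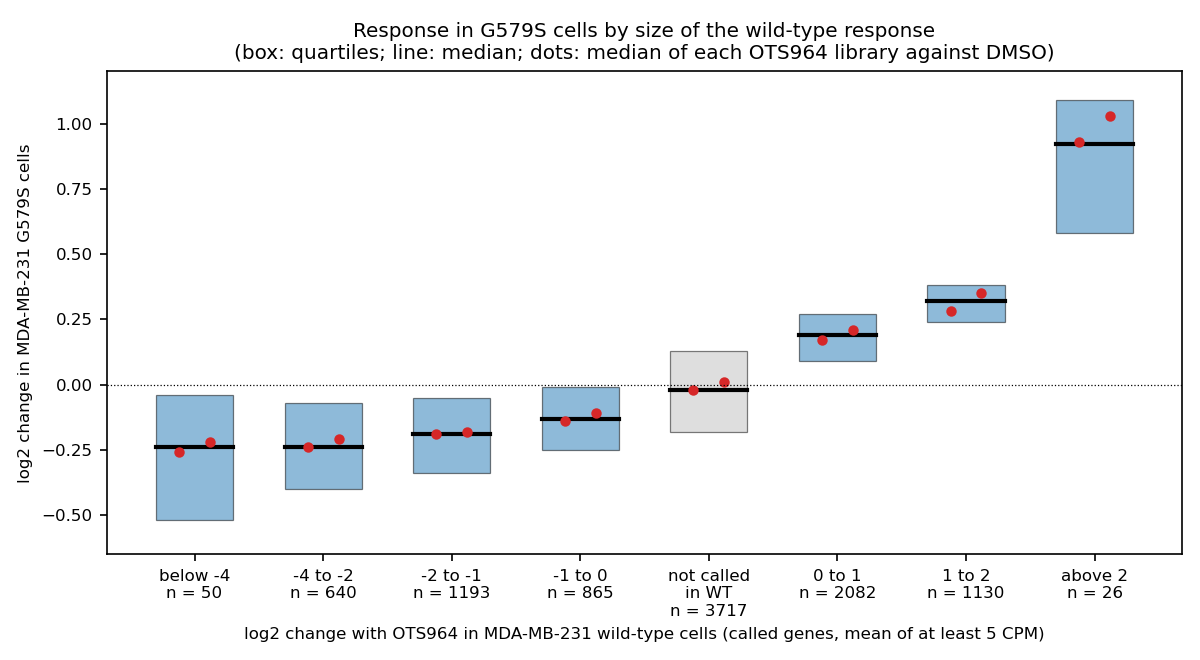
Boxes give the quartiles and lines the median of the log2 change in MDA-MB-231 G579S cells for genes with a mean of at least 5 CPM, grouped by their log2 change in wild-type cells, and dots the median of each OTS964 library against the DMSO libraries. Medians step from -0.24 through -0.02 for genes not called in wild-type cells to 0.92 for the 26 genes with the largest rises.

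Some properties of the libraries moved with the treatment. The share of reads on predicted transcripts was 12.9% and 12.6% in G579S DMSO libraries and 11.8% and 11.5% in G579S OTS964 libraries, and in wild-type libraries it was 11.7% and 11.9% with DMSO and 9.46% and 9.27% with OTS964. The TMM scaling factors were 1.14 and 1.15 with DMSO and 1.07 and 1.03 with OTS964 in G579S cells, and 1.14 in both DMSO and 0.773 and 0.832 in the OTS964 libraries of wild-type cells. The share held by the 10 most abundant genes was 5.17% in both G579S DMSO libraries and 5.73% and 5.70% with OTS964. Their part in the small shifts was not tested.

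Families of highly expressed genes shifted together in sign. All 76 cytosolic ribosomal protein genes had a log2 change above 0 in G579S cells, with a median of 0.34 and quartiles of 0.32 and 0.37, and 0 were called by edgeR (56 at an unadjusted p below 0.05, 5 by DESeq2). RPL4 was at 948 and 1018 CPM and at 1205 and 1196 CPM (0.29 ± 0.07, adjusted p = 0.11), and RPL39 at 109 and 118 CPM and at 157 and 163 CPM (0.50 ± 0.14, adjusted p = 0.15). Ribosomal protein genes have many processed copies in the genome that can share their reads. The 54 nuclear genes of oxidative phosphorylation behaved alike, with a median of 0.35, all 54 above 0 and 0 called (28 at an unadjusted p below 0.05, 5 by DESeq2). ATP5F1B, a subunit of ATP synthase, was at 544 and 551 CPM and at 695 and 699 CPM (0.35 ± 0.08, adjusted p = 0.095), and SDHB of complex II was at 57.3 and 56.1 CPM and at 74.1 and 75.3 CPM (0.40 ± 0.10, adjusted p = 0.097). With library totals as the scaling the medians of these lists were 0.22 and 0.23, and all 76 and all 54 genes stayed above 0. In wild-type cells the medians were 1.12 and 1.11, with 75 and 52 genes called higher.

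The 35 homologous recombination and Fanconi genes had a median of -0.14 in G579S and -0.64 in wild-type cells, the 44 mitosis genes -0.05 and -0.67, and the 48 KRAB zinc finger genes -0.08 and -1.58. With library totals as the scaling the G579S medians were -0.27, -0.17 and -0.20. None of these genes was called by edgeR in G579S cells, with 4, 1 and 5 at an unadjusted p below 0.05 and 2, 0 and 0 called by DESeq2. ATM, the DNA damage kinase, was at 38.5 and 35.9 CPM and at 11.7 and 21.3 CPM (-1.17 ± 0.34, adjusted p = 0.17), and BRIP1, a helicase of the Fanconi pathway, at 75.5 and 78.8 CPM and at 54.0 and 52.0 CPM (-0.54 ± 0.26, adjusted p = 0.4). The 39 replication-dependent histone genes tested had a median of 0.00 in G579S and 0.88 in wild-type cells, with 0 called by edgeR in G579S (3 at an unadjusted p below 0.05, 2 by DESeq2). Of 27 apoptosis genes with a median of -0.05, none was called by edgeR (3 at an unadjusted p below 0.05, 2 by DESeq2). BAK1 changed by -0.41 in G579S and -1.74 in wild-type cells, and BCL2L2 by -0.60 and -1.03.

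**Figure D5:**
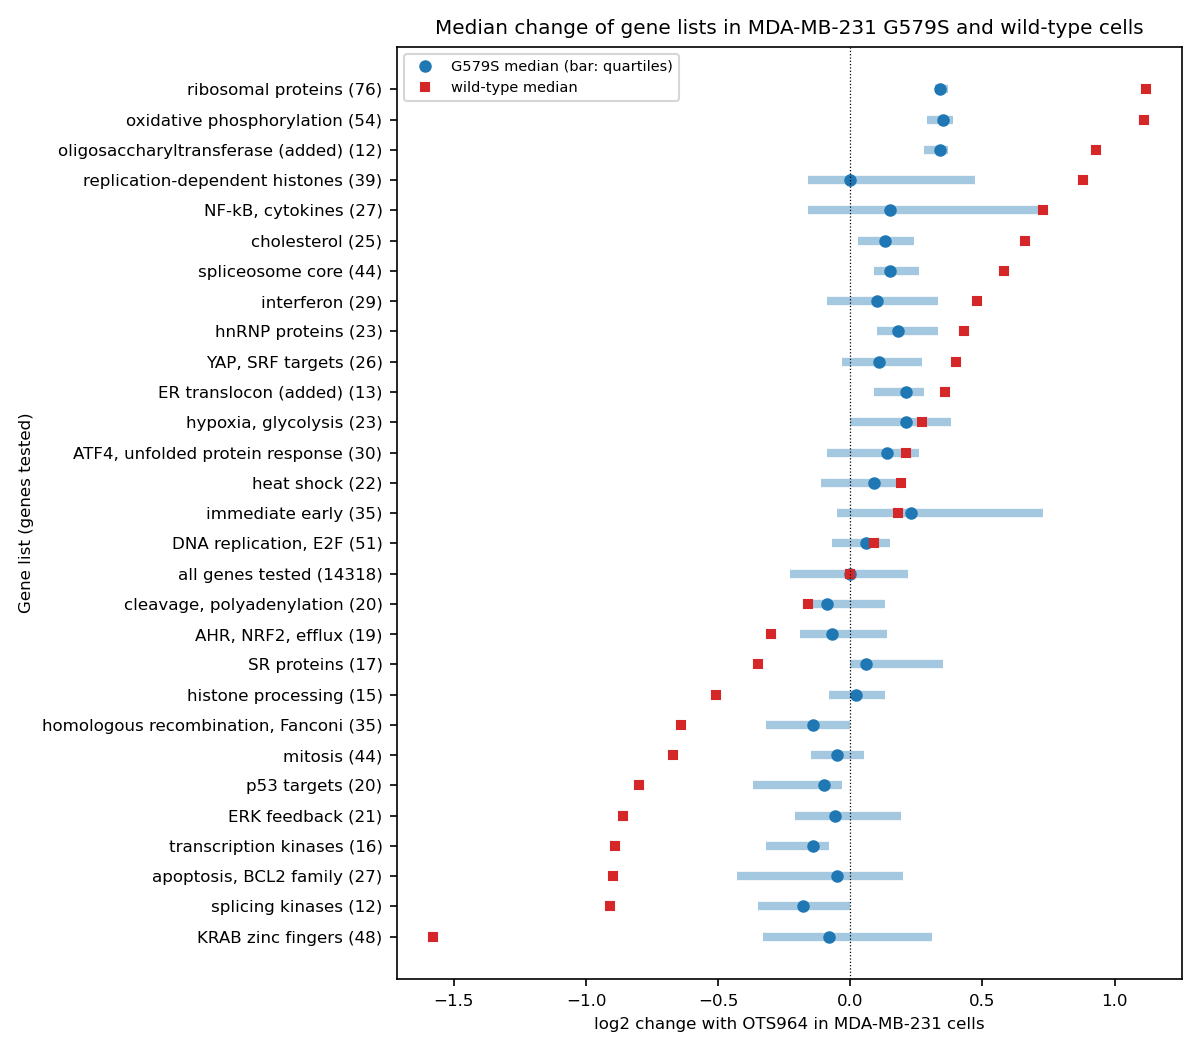
Blue points are the median and bars the quartiles of the log2 change with OTS964 in MDA-MB-231 G579S cells for each gene list, and red squares the wild-type medians, with the number of genes tested in brackets. Ribosomal protein and oxidative phosphorylation genes sit at 0.34 and 0.35 in G579S and at 1.12 and 1.11 in wild-type cells, and KRAB zinc fingers at -0.08 and -1.58.

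Over all 32 lists, 852 genes were tested in G579S cells and 10 were called, all higher (1.17%, beside 0.307% of all genes), in 7 of the lists. The lists were chosen with earlier results of these data known, so these shares are no test. With library totals as the scaling, the median over all genes was -0.08, and list medians moved down with it. That of the CDK11 genes went from 0.09 to -0.04, heat shock from 0.09 to -0.03, interferon from 0.10 to -0.03, DNA replication from 0.06 to -0.07, histone processing from 0.02 to -0.10 and the core spliceosome from 0.15 to 0.02. Of the markers tested, 15 of 22 mesenchymal and 10 of 16 breast epithelial genes had a log2 change above 0, beside 47.5% of all genes. The summed level of the 22 mesenchymal markers was 9901 to 10030 CPM in G579S DMSO libraries and 11730 to 12040 CPM with OTS964, where VIM, the filament protein vimentin, changed by 0.28 (adjusted p = 0.25) and CAV1 by 0.35 (adjusted p = 0.17). The matrix gene FN1 changed by -0.20, the epithelial keratin gene KRT8 by 0.34 (adjusted p = 0.31) and the growth factor receptor gene EGFR by -0.29. None of the marker genes was called by edgeR, and DESeq2 called 2 of the mesenchymal ones. Their part in the result was not tested.

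The G579S cells of the other lines responded to different extents. OTS964 changed 94 genes in A375 G579S (0.657%), 56 in Cal51 G579S (0.391%) and 3371 in DLD1 G579S cells (23.5%), beside the 44 in MDA-MB-231 G579S (0.307%). Of the 32 genes that rose in MDA-MB-231 G579S, 24 were called higher in DLD1, 7 in A375 and 1 in Cal51, beside backgrounds of 10.8%, 0.384% and 0.140% of all genes. The 7 in A375 included HNRNPL, SRSF1, SMAD7 and CCN1, and the 1 in Cal51 was IVNS1ABP. Of the 12 genes that fell, 7 were called lower in DLD1, and ARGLU1 was the only one called in A375 and in Cal51, beside 12.7%, 0.272% and 0.251% of all genes. ARGLU1 changed by -0.62, -0.71 and -1.07 in A375, Cal51 and DLD1 G579S cells. By sign alone, 24, 18 and 30 of the 32 rose and 8, 5 and 9 of the 12 fell in A375, Cal51 and DLD1. Over the 9703 genes past the 5 CPM filter, the Spearman rho with MDA-MB-231 G579S was 0.14, -0.2 and 0.26 in these lines. The numbers of called genes in these lines moved with single libraries too. Cal51 gave 2211 without its first DMSO library, 11 without the second, 11 without the first OTS964 library and 5 without the second. In the same order A375 gave 15, 19, 34 and 25, and DLD1 gave 2045, 2052, 1965 and 2165.

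A direct test set the MDA-MB-231 G579S response against the mean of the other G579S lines and called 118 genes (0.824%), 90 higher (0.629%) and 28 lower (0.196%). Of the 44 genes, 9 passed it, 4 of those that rose and 5 of those that fell. TNFAIP3 changed by -0.67, -0.41 and 0.24 in A375, Cal51 and DLD1, a difference from MDA-MB-231 of 1.38 (adjusted p = 0.016). CSRNP1 changed by 0.28, -0.01 and 0.39 in the other lines, a difference of 0.82 (adjusted p = 0.036). PAFAH1B1 changed by 0.26, 0.19 and 0.35, opposite in sign to MDA-MB-231 (difference -0.62, adjusted p = 0.00062), and was called higher in DLD1. IFT140, SLX9, HOXC6, ZFP62 and POGLUT2, all of low level, passed as well. The count of 118 was 16, 50, 34 and 33 without each MDA-MB-231 G579S library in turn, and 938 without the first Cal51 DMSO library. It was 73 and 67 without each A375 DMSO library, 70 without the second A375 OTS964 library, 73 without the first Cal51 OTS964 library and 68 without the second DLD1 DMSO library. BHLHE40, MYC, CCN1 and CREBZF did not pass this test, with adjusted p values of 0.13, 0.23, 0.33 and 0.69.

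The study asks about RNA processing, and transcript usage gives a partial view of it. By edgeR's exon-style usage test on the listed transcripts, 15 of 7052 genes changed their usage with OTS964 in MDA-MB-231 G579S cells (0.213%), beside 56 in wild-type cells (0.794%), 7 in A375 G579S (0.0993%), 18 in Cal51 G579S (0.255%) and 36 in DLD1 G579S (0.510%). None of the 15 was among the 44 genes called by level, and 4 were shared with wild-type MDA-MB-231. In SYNCRIP, an hnRNP-like protein, the transcript NM_001159677.1 held 0% of the gene's reads in both DMSO libraries and 13.8% and 6.36% with OTS964 (adjusted p = 1.9e-09), while the level of the gene changed by 0.10 (adjusted p = 0.88). SYNCRIP also passed in the G579S cells of A375, Cal51 and DLD1. In wild-type MDA-MB-231 cells the transcript held 33.9% and 16.7% with DMSO and 18.4% in both OTS964 libraries.

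In NUP98, a nuclear pore gene, NM_016320.4 held 57.8% and 59.7% with DMSO and 0% in both OTS964 libraries (adjusted p = 0.0053), and the gene's level went from 120 and 118 CPM to 60.7 and 70.2 CPM (-0.86 ± 0.28, adjusted p = 0.21). In 12 of the 15 genes the leading transcript was listed at 0 in both DMSO libraries, and in 4 of these also in 1 OTS964 library. In the other 3 it was listed at 0 in both OTS964 libraries. The count was 5, 8, 5 and 28 without each G579S library in turn, and reads in retained introns are not measured by these transcript tables.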

How the data were processed

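RNA of 4 cell lines was sequenced in 32 libraries. The deposited tables hold, per transcript, an estimated count of reads that the authors made with a transcript quantifier, per the file headers. They also hold the TPM (abundance per transcript length and library) and the transcript lengths that the authors deposited. Its name and version are not given in the sources used here. The builds in the submitters' processing notes are those of the mouse, GRCm38 and mm10, and the identifiers matched human RefSeq. Of 87398 identifiers 42587 matched a gene symbol (48.7%), 99.1% of the curated coding ones and 20.3% of the predicted ones, and they held 85.62% to 89.37% of the estimated reads of a library. Unmatched identifiers were not used here. The series' libraries held 16091376 to 29742687 reads.

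Estimated counts were summed per gene and rounded to whole numbers. Genes passing edgeR's expression filter (14318) were scaled by TMM (trimmed mean of M values) and tested by edgeR 4.0.16's quasi-likelihood test in R 4.3.3 over 16 groups (16 residual degrees of freedom), with Benjamini-Hochberg adjustment over all genes and a threshold of 0.05. For transcript usage, diffSpliceDGE of edgeR with Simes' method was run. DESeq2 1.42.0 was an alternative, as were other scalings, filters, sets of libraries, counts rebuilt from the deposited TPM, and leaving out each library. The procedure was tested on simulated data with the same spread for all genes and groups. The spread in the real libraries was unequal between groups, so the simulation does not bear on how many calls are right. Values in CPM are TMM-scaled. Genes were named by rule: the CDK11 genes and partners, the called genes with the largest changes, up to 4 genes of each list with the smallest p, and genes called in both genotypes. Called genes outside this rule, and a few others that a result turned on, were added after their values were seen. The genes and lists were chosen with earlier results of these data known. Results for a few called genes are not reported here, though the counts include them.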

Additional observations from a re-analysis of the deposited data

Results flagged for a closer look

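The items here are differences between groups in the response to OTS964 that passed a test of the difference itself, given as the log2 response in MDA-MB-231 G579S cells minus that in the group named. Against wild-type cells, the signs depended on the scaling. The main fit, scaled by TMM, had 1893 positive and 1904 negative differences, and library totals gave 2721 and 374. The values below are those of the main fit. No explanation was weighed.

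Against wild-type MDA-MB-231 cells, signalling and stress genes had smaller rises in G579S cells. The difference was -1.75 for BHLHE40, -1.61 for CCN1, -1.45 for CSRNP1, -1.30 for MYC and -1.30 for CDKN1B. It was -1.17 for DUSP5, -1.14 for PHLDA1, -1.06 for GADD45A, -0.91 for TNFAIP3 and -0.79 for SMAD7. NFKBIA and DUSP6, which were not called in G579S cells, gave -1.40 and -1.38.

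Genes of the endoplasmic reticulum and of metabolism differed in the same direction. The values were -0.80 for DDOST, -0.76 for RPN2, -0.66 for RPN1, -0.61 for SEC61A1, -0.52 for TMBIM6, -0.51 for STT3A and -0.49 for PRCP. PGK1 gave -0.78 and PGAM1 -0.77. Among genes not called in G579S cells, CALR gave -0.77, PDIA4 -0.71, ENO1 -0.60, ATP5F1B -0.71, SDHB -0.46, RPL39 -0.67 and RPL4 -0.51. The markers KRT8 and VIM gave -0.88 and -0.64.

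RNA-binding genes differed in both directions. YBX1 gave -0.59, PABPC4 -0.44 and HNRNPL -0.40, and U2AF2 and CSTF2T gave -0.61 and -0.75. IVNS1ABP gave 0.71 and SRSF3 0.57, and CSTF3 and CPSF4 gave 0.67 and 0.62.

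Genes that fell further in wild-type cells gave positive differences, of 2.37 for MAT2A, 1.40 for ARGLU1, 1.07 for PAFAH1B1 and 1.03 for SLF2. Among genes not called in G579S cells these were 1.39 for CDK13, 1.39 for BRIP1, 1.33 for BAK1, 1.30 for SRPK2 and 1.2 for SAP30BP. DHX35, listed at 0 in both wild-type OTS964 libraries, gave a fitted 12.04, which depends on the prior count and bounds nothing.

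Genes of low level had larger changes in G579S than in wild-type cells. SLX9 gave 1.71, IFT140 2.98 and HOXC6 -2.96. The fitted values of 7.17 for TNC, -7.05 for KCNAB1 and -9.40 for POGLUT2 also depend on the prior count, since a group of each was at 0.

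Against the mean of A375, Cal51 and DLD1 G579S cells, the difference was 1.38 for TNFAIP3, 0.82 for CSRNP1, -0.62 for PAFAH1B1, -1.84 for NUP98, 4.11 for IFT140, 2.42 for SLX9 and -2.93 for HOXC6. The fitted values for ZFP62 and POGLUT2, at 0 in both MDA-MB-231 G579S OTS964 libraries, were -8.72 and -8.30.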

How the results depend on the processing

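The 44 calls in MDA-MB-231 G579S became 29 with RLE scaling, 420 with DESeq2, 0 in the 8 MDA-MB-231 libraries (1102 genes at an unadjusted p below 0.05), 1027 in the 4 G579S libraries, 134 without the 4 DLD1-labelled wild-type libraries and 7 to 16 without single libraries. The 10 calls among list genes became 6 with RLE, 6 with library totals, 50 with DESeq2, 0 in the 8 libraries (148 at an unadjusted p below 0.05), 196 in the 4, 32 without the 4 DLD1-labelled wild-type libraries and 1 to 3 without single libraries. The 3797 genes whose responses differed between the genotypes became 2293 in the 8 libraries. The 118 against the other G579S lines became 183 with library totals, 740 with DESeq2, 404 without the 4 DLD1-labelled wild-type libraries and 16 to 938 without single libraries. A375 G579S gave 150, 441, 217 and 15 to 34 under those settings, and Cal51 gave 564 with DESeq2, 135 without the 4 DLD1-labelled wild-type libraries and 5 to 2211 without single libraries. DLD1 gave 1965 to 2165 without single libraries. The median of -0.22 for genes lower in wild-type cells became -0.32 with library totals, -0.24 with DESeq2, -0.24 in the 8 libraries and -0.23 to -0.20 without single libraries. Transcript usage gave 52 by the gene-level F test and 5 to 28 without single libraries. The causes were not tested. With a lone library in a group, it is assumed to vary like the other groups.

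Replicate numbers did not pair the samples (correlation of deviations 0.01 in MDA-MB-231 G579S). With the replicate block the counts were 3 for MDA-MB-231 G579S, 3 against the other lines, 25 for A375, 2 for Cal51, 0 among list genes (202 at an unadjusted p below 0.05) and 9 for transcript usage. CDK11A, PBK and SYNCRIP, all uncalled, reversed. CDK11A gave 0.00 with the replicate block and 0.24 without the second G579S DMSO library. PBK gave -0.00 with RLE and with DESeq2, -0.11 with library totals, and -0.02 in the 8 libraries, in the 4 and without the first library of either group. SYNCRIP gave -0.02 with library totals and without the second DMSO library. The fit of 4 libraries could give no comparison with other groups. Of 42 called genes followed one by one, 15 kept their call in most of the settings. RPN1, RPN2, DDOST, STT3A and SEC61A1 were not among these 15. At 2 libraries a group, genes near the floor of 3 counts are the least certain.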
